A study of Oncorhynchus mykiss with 12 samples.

Results

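The miR-21 family was measured in the liver of rainbow trout (Oncorhynchus mykiss), with 3 of its sequences followed through 12 small RNA libraries. The 3 were picked by name from a table of 1696 sequences: fru-miR-21 and ssa-miR-21a-5p_R-3 from the 5p arm, and pol-miR-21-3p_R-1_1ss14AT from the 3p arm. A further 13 sequences carried a miR-21 name. The fish were adult, wild type and labelled as strain Walbaum. One group had fasted for 4 days (fasted; fish 7, 8, 10 and 13). The other groups were refed acutely, either without carbohydrates (noCHO; fish 20, 21, 31 and 33) or with high carbohydrates (highCHO; fish 38, 45, 49 and 50). Each fish gave 1 library of whole liver, which holds hepatocytes, blood, vessel, duct and immune cells together. In such tissue a change in RNA per cell cannot be told apart from a change in the number of cells that hold it. The time after the meal and the carbohydrate content were not given in the sources used here.

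A miRNA precursor folds into a hairpin, and an enzyme cuts a duplex out of it whose strands are the 5p and the 3p arm. In most miRNAs the more abundant strand guides an Argonaute protein to messenger RNAs, chiefly through bases 2 to 8, the seed, while the other strand is mostly degraded. For miR-21 the guide is the 5p strand. It is one of the most conserved vertebrate miRNAs; in mammals it represses the tumour suppressor PDCD4, and it rises with injury, inflammation and regrowth of the liver.

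The sequences below are those that made up nearly all miR-21 counts, together with the next ones in each arm. They are written 5′ to 3′ as deposited, with T for U, and capitals mark bases 2 to 8.
fru-miR-21: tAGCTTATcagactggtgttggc
ssa-miR-21a-5p_R-3: tAGCTTATcagactggtgttg
dre-miR-21_1ss23CA: tAGCTTATcagactggtgttgga
hhi-miR-21_L+2R+1: tCTAGCTTatcagactggtgttggct
pol-miR-21-3p_R-1_1ss14AT: cGACAACAgtctgtaggctgt
ssa-miR-21a-3p: cGACAACGgtctgtaagctgt

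The 5p members shared the seed and the first 21 bases, and fru-miR-21 was longer by the last bases of its 23. Because they overlap, they are variants of the same miRNA and not independent measurements. dre-miR-21_1ss23CA differed from fru-miR-21 by C23A, counted from the 5′ end, and so kept the seed. hhi-miR-21_L+2R+1 held the whole of fru-miR-21 with extra bases at both ends, which moves its bases 2 to 8 off the seed of the others. The 3p sequences differed by A8G and G16A, from pol-miR-21-3p_R-1_1ss14AT to ssa-miR-21a-3p. The first of these lies inside the seed. Against fru-miR-21, the longest run of Watson-Crick pairs was 7 bases for pol-miR-21-3p_R-1_1ss14AT (bases 9 to 15 of the 5p arm with bases 7 to 13 of the 3p arm) and 6 bases for ssa-miR-21a-3p (bases 2 to 7 with bases 14 to 19). Of the 340 sequences that passed the filter on low counts, 6 carried a miR-21 name. Among those of other families 0 had the seed of a member, and no row under another name held a miR-21 core.

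The 3 members held 98.3% of all miR-21 counts, and all 3 passed the filter. fru-miR-21 held 88.2%, ssa-miR-21a-5p_R-3 8.27% and pol-miR-21-3p_R-1_1ss14AT 1.89%. dre-miR-21_1ss23CA held another 1.55%. A library's total of miRNA counts ran from 197684 (highCHO fish 49) to 3057706 (noCHO fish 33), so the members rested on at least 4707, 310 and 229 estimated counts in the shallowest library. In the mean over all libraries fru-miR-21 ranked 10 of 1696, ssa-miR-21a-5p_R-3 43 and pol-miR-21-3p_R-1_1ss14AT 72. The rank of fru-miR-21 moved between 3 (noCHO fish 31) and 16 (noCHO fish 21), and its share of the library between 5.13% (95% exact interval 5.10 to 5.16%) and 1.11% (1.09 to 1.13%) in the same fish. Thus the highest and the lowest library belonged to 1 group.

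The libraries differed beyond their groups, which bears on every comparison that follows. A let-7 variant, dre-let-7c-5p_1ss19GC, made up 0.942 to 1.42% of its sum with dre-let-7a in the 4 fasted fish and noCHO fish 20 and 21 (library set 1), and 3.32 to 3.81% in noCHO fish 31 and 33 and the 4 highCHO fish (library set 2). The labels give no batch, and the sets were defined from the data. Inserts under 15 nt made up 7.63 to 11.6% of adapter-containing reads in fasted, 6.18 to 13.0% in noCHO and 14.2 to 32.2% in highCHO libraries. Of mappable reads, miRNA counts made up 43.1 to 45.8% in fasted, 44.4 to 56.0% in noCHO and 25.5 to 41.2% in highCHO libraries. Raw reads ran from 6367480 to 7947369 in library set 1 and from 8104175 to 9801957 in library set 2. Only noCHO fish stand in both sets. No set holds both fasted and highCHO fish, and what separates those groups cannot be told apart from the set except through the noCHO group.

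Levels are given as CPM (a library's counts scaled to a common total) after TMM scaling, which sets the bulk of sequences equal between libraries. A read covers the whole small RNA, so no division by length applies. fru-miR-21, the guide strand, stood at 25684, 16604, 31857 and 21725 CPM in fasted fish 7, 8, 10 and 13. In noCHO fish 20, 21, 31 and 33 it stood at 16298, 9578, 51733 and 26860 CPM, and in highCHO fish 38, 45, 49 and 50 at 19993, 17291, 20813 and 15257 CPM. The noCHO fish spanned the range of both other groups, with fish 21 below every other fish and fish 31 above. The means were 23968 ± 6441, 26117 ± 18499 and 18338 ± 2547 CPM from fasted through noCHO to highCHO (SD, n = 4 each). The SD was 70.8% of the mean in noCHO against 26.9% and 13.9% in the fasted and highCHO groups. All 3 groups overlapped pairwise, and the order of their means was within this spread.

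ssa-miR-21a-5p_R-3, the same guide strand with an earlier end, stood at 1627, 1733, 2388 and 1939 CPM in the fasted fish, in the same order. The noCHO fish had 2189, 1920, 3059 and 3519 CPM. The highCHO fish had 2232, 1702, 1371 and 1645 CPM. Here noCHO fish 33, not fish 31, was highest, and the lowest fish of the noCHO group lay among the fasted and highCHO fish. The means were 1922 ± 337, 2671 ± 745 and 1738 ± 360 CPM (SD, n = 4), a narrower spread than that of the longer sequence in noCHO fish.

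pol-miR-21-3p_R-1_1ss14AT, the strand opposite the guide, stood at 620, 381, 589 and 410 CPM in the fasted fish. The noCHO fish had 315, 202, 1144 and 350 CPM, and fish 31 stood apart from the other 3. The highCHO fish had 345, 1068, 1013 and 449 CPM. They fell into a high pair, fish 45 and 49, and a pair within the fasted range or just below it. The means were 500.0 ± 122.2, 503 ± 432 and 718 ± 374.5 CPM (SD, n = 4).

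**Figure D1:**
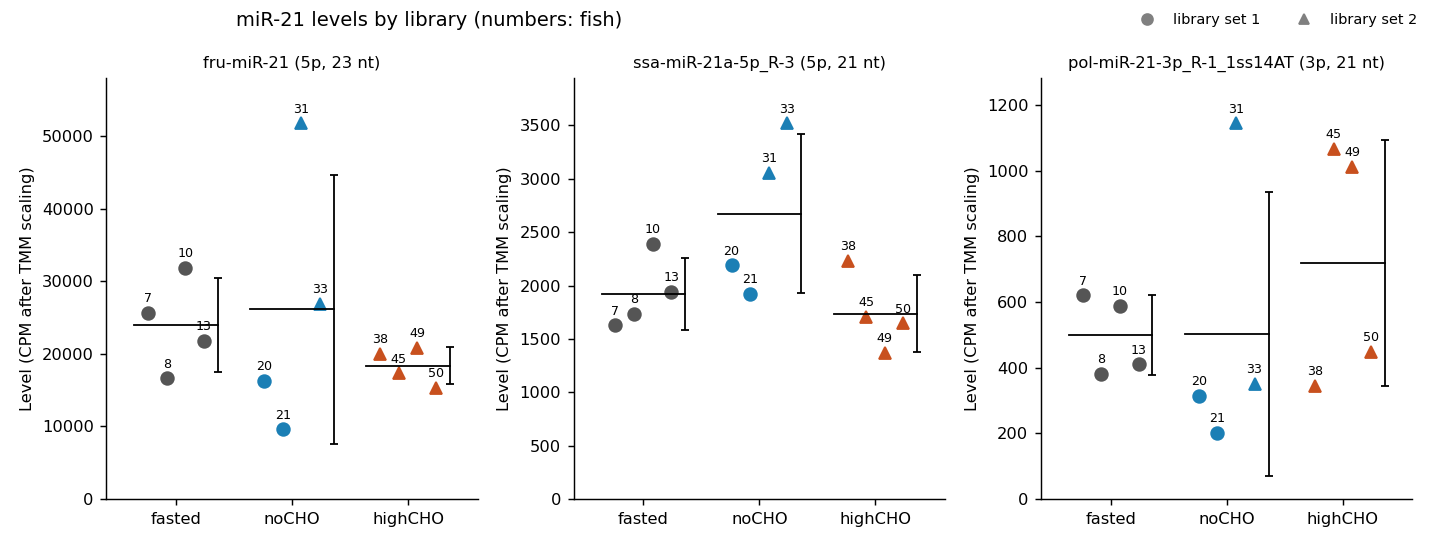
Level of each of the 3 miR-21 members (vertical axis, CPM after TMM scaling, linear from 0) in each library, by group. Numbers name the fish, circles are library set 1 and triangles library set 2, and lines and bars give the mean and SD of 4 libraries. noCHO fish 31 is the highest library for fru-miR-21 (51733 CPM) and for the 3p member (1144 CPM), and noCHO fish 21 the lowest for both (9578 and 202 CPM).

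The comparison of the carbohydrate-free meal with fasting sets noCHO against fasted fish, groups that also differed in library set for noCHO fish 31 and 33. No member passed an adjusted p of 0.05, on a background of 0% of 340 sequences (23 sequences, 6.76%, had an unadjusted p under 0.05, and DESeq2 called 2). The groups overlapped for every member, whereas those of 4.12% of the sequences did not. fru-miR-21 had a log2 change of 0.12 (SE 0.40, 95% interval −0.75 to 1.00, adjusted p = 0.998 in edgeR's quasi-likelihood test). ssa-miR-21a-5p_R-3 had a change of 0.48 (SE 0.22, −0.01 to 0.96, adjusted p = 0.692). pol-miR-21-3p_R-1_1ss14AT had a change of 0.01 (SE 0.51, −1.11 to 1.13, adjusted p = 1.00).

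For fru-miR-21 and the 3p member that near-zero value combined noCHO fish 31, above all 4 fasted fish, with lower fish. In noCHO fish 33, of the same library set as fish 31, fru-miR-21 stood at 26860 CPM, within the fasted range. The 3p member of fish 33, at 350 CPM, lay below every fasted fish. Within library set 1, noCHO fish 20 and 21 lay below all 4 fasted fish in both sequences, and 13.2% of the 340 sequences showed the same arrangement (25.3% were apart in either direction). The fitted change there was −0.90 for fru-miR-21 (SE 0.28, adjusted p = 0.217) and −0.97 for the 3p member (SE 0.29, adjusted p = 0.217). ssa-miR-21a-5p_R-3 was at 0.09 (SE 0.20, adjusted p = 0.865) in the same fit. Leaving out noCHO fish 31 alone gave −0.49 for fru-miR-21 and −0.83 for the 3p member, with adjusted p = 0.697 and 0.563. None of these values passed.

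The comparison of the high-carbohydrate meal with fasting gave 21 sequences past the threshold, 6.18% of 340, and no miR-21 member was among them. An unadjusted p under 0.05 was reached by 27.1% of the sequences and by no member, and the groups of 17.1% did not overlap, again without a member. fru-miR-21 had a log2 change of −0.39 (SE 0.40, −1.26 to 0.49, adjusted p = 0.610). ssa-miR-21a-5p_R-3 had −0.14 (SE 0.22, −0.63 to 0.34, adjusted p = 0.749), and pol-miR-21-3p_R-1_1ss14AT had 0.52 (SE 0.52, −0.60 to 1.64, adjusted p = 0.602). With the library set as a term, 13 of 340 sequences passed. Among them was fru-miR-21, with a fitted log2 change of −1.99 (SE 0.46, adjusted p = 0.0401). The 3p member had a change of −1.01 (SE 0.76, adjusted p = 0.471). ssa-miR-21a-5p_R-3 had −0.82 in that fit (SE 0.32, adjusted p = 0.175). When the term was the share of short inserts instead, fru-miR-21 had −0.51 (SE 0.62, adjusted p = 0.675), ssa-miR-21a-5p_R-3 0.20 (SE 0.30, adjusted p = 0.758) and the 3p member −0.50 (SE 0.78, adjusted p = 0.764). That share was at least 14.2% in highCHO libraries and at most 13.0% in all others, without overlap. The short-insert term thus rests on differences within groups, and its highCHO changes are extrapolated, here and wherever it is used below. The noCHO group, with 2 fish per set, is the basis of the set term. In it fru-miR-21 stood at 9578 and 16298 CPM in set 1 against 26860 and 51733 CPM in set 2.

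The comparison between the meals sets highCHO against noCHO fish, groups that also differed in short inserts and, for noCHO fish 20 and 21, in library set. It gave 8 sequences past the threshold, 2.35% of 340, again without a member. An unadjusted p under 0.05 was reached by 19.4%. The changes were −0.51 for fru-miR-21 (SE 0.40, −1.39 to 0.37, adjusted p = 0.442) and −0.62 for ssa-miR-21a-5p_R-3 (SE 0.22, −1.11 to −0.13, unadjusted p = 0.0170, adjusted p = 0.146, edgeR). pol-miR-21-3p_R-1_1ss14AT had a change of 0.51 (SE 0.52, −0.61 to 1.63, adjusted p = 0.563). The groups overlapped for every member, whereas those of 9.41% of the 340 sequences did not.

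Within library set 2, where highCHO fish can be set against noCHO fish 31 and 33, both 5p members lay lower in all 4 highCHO fish than in the 2 noCHO fish. Of all 340 sequences, 16.5% did the same, and 25.6% were apart in either direction. The change was −1.08 for fru-miR-21 (SE 0.30, adjusted p = 0.208) and −0.89 for ssa-miR-21a-5p_R-3 (SE 0.29, adjusted p = 0.238), and −0.05 for the 3p member (SE 0.61, adjusted p = 0.973). With the set as a term over all libraries, 18 of 340 sequences passed. ssa-miR-21a-5p_R-3 was among them (−0.92, SE 0.22, adjusted p = 0.0409) and fru-miR-21 was not (−1.10, SE 0.31, adjusted p = 0.0719). When the share of short inserts was the added term, ssa-miR-21a-5p_R-3 had −0.26 (SE 0.31, adjusted p = 0.718), fru-miR-21 −0.64 (SE 0.63, adjusted p = 0.625) and the 3p member −0.49 (SE 0.77, adjusted p = 0.797). A fit over both sets without noCHO fish 31 kept noCHO fish 20 and 21 of set 1. There the change of fru-miR-21 was 0.12 and that of the 3p member 1.36 (adjusted p = 0.869 and 0.146).

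**Figure D2:**
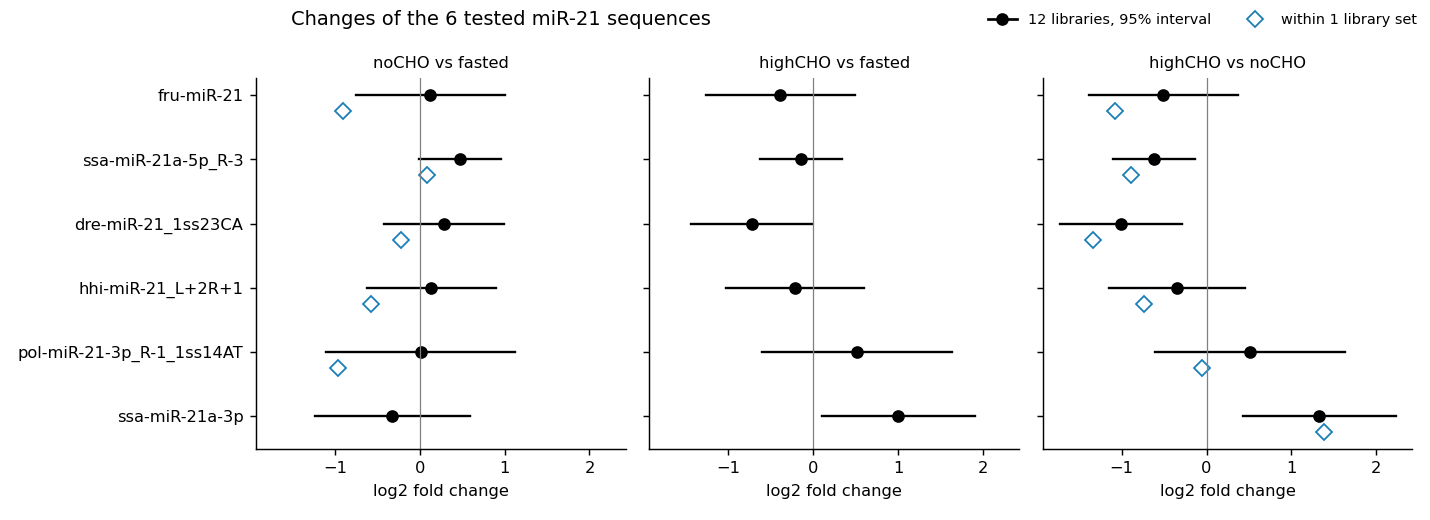
Log2 fold change (horizontal axis) of the 6 miR-21 sequences that passed the filter, in each comparison; filled circles and lines give the fit over 12 libraries with its 95% interval, and open diamonds the fit within 1 library set where both groups had libraries in it. ssa-miR-21a-3p did not pass the filter within set 1, and highCHO and fasted fish share no set. fru-miR-21 moves from 0.12 to −0.90 for noCHO against fasted and from −0.51 to −1.08 for highCHO against noCHO.

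The ratio of the arms within a library needs no scaling between libraries. It was taken as the log2 of the summed counts of the 5p members over the 3p member, each with 0.5 added. Sequences differ in how well they are ligated and amplified, so the ratio is compared between libraries and not read as a ratio of molecules. In fasted fish it was 5.46, 5.59, 5.86 and 5.85, or 44.0 to 58.1 5p counts for each 3p count. The noCHO fish had 5.87, 5.83, 5.58 and 6.44. The highCHO fish had 6.01, 4.15, 4.45 and 5.23, so fish 45, 49 and 50 lay below all 8 fish of the other groups, while fish 38 lay above all of those except noCHO fish 33. In fish 45 and 49 there were 17.8 and 21.9 5p counts for each 3p count.

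The mean log2 ratio was 5.69 ± 0.20 in fasted, 5.93 ± 0.36 in noCHO and 4.96 ± 0.83 in highCHO fish (SD, n = 4), with geometric means of 51.6, 61.0 and 31.2 5p counts per 3p count. The difference between highCHO and fasted fish was −0.73 (SE 0.43, two-sided exact permutation p = 0.171) and that between highCHO and noCHO fish −0.97 (SE 0.45, exact permutation p = 0.114). The groups overlapped in each comparison. For noCHO against fasted the difference was 0.24 (SE 0.21, exact permutation p = 0.343). Adjusted over the 6 comparisons of within-library quantities, p was 0.371 each time, and 4 against 4 libraries allow 0.0286 at the smallest. The difference of highCHO and fasted fish was −0.46 without highCHO fish 45 and −1.08 without fish 38, and that of noCHO and fasted fish was 0.07 without noCHO fish 33. The highCHO fish with the lowest ratios also had the most short inserts, 21.4% in fish 45 and 32.2% in fish 49 against 14.2% in fish 38 and 16.9% in fish 50; the part of this in the ratio was not tested.

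The share of the 21-nt sequence among the counts of the 5p members was 5.96, 9.45, 6.97 and 8.19% in the fasted fish. It was 11.8, 16.7, 5.58 and 11.6% in the noCHO fish and 10.0, 8.96, 6.17 and 9.74% in the highCHO fish. The lowest was noCHO fish 31 (95% exact interval 5.45 to 5.72%) and the highest noCHO fish 21 (16.1 to 17.3%), the same fish that were highest and lowest in fru-miR-21. This is a share of counts that include fru-miR-21 itself. Group means were 7.64 ± 1.51, 11.4 ± 4.55 and 8.73 ± 1.76% (SD, n = 4). noCHO exceeded fasted fish by 3.78 percentage points (SE 2.40, two-sided exact permutation p = 0.200). highCHO differed from fasted fish by 1.09 points (SE 1.16, exact permutation p = 0.371) and from noCHO fish by −2.70 points (SE 2.44, exact permutation p = 0.314), all with an adjusted p of 0.371. The first difference was 2.03 points without noCHO fish 21 and 5.73 without fish 31, and the last −0.94 and −4.64. That of highCHO and fasted fish was 0.525 points without fasted fish 7 and 1.94 without highCHO fish 49. Within set 1 the difference of noCHO and fasted fish was 6.62 points without overlap (exact permutation p = 0.133, the smallest that 2 against 4 libraries allow).

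**Figure D3:**
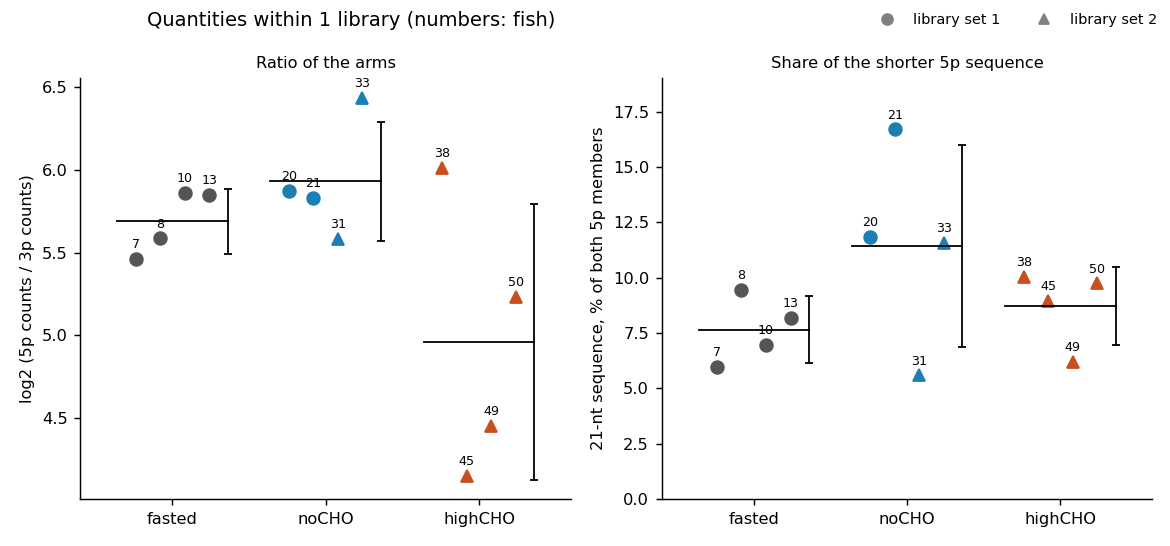
Left, log2 ratio of 5p to 3p counts; right, percentage of the 21-nt sequence in the counts of both 5p members, each in 1 library, by group. Numbers name the fish, circles are library set 1 and triangles set 2, and lines and bars give the mean and SD of 4 libraries. highCHO fish 45 and 49 have the lowest arm ratios (4.15 and 4.45), and noCHO fish 21 the highest 21-nt share (16.7%).

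Correlation between members was computed over the 12 libraries for the 3 pairs, and none passed adjustment. fru-miR-21 and pol-miR-21-3p_R-1_1ss14AT had a Pearson r of 0.61 on log2 CPM (permutation p = 0.0332, adjusted over 3 pairs 0.0997) and a Spearman rho of 0.55 (permutation p = 0.0686, adjusted 0.200). Without noCHO fish 21 and 31, the libraries farthest from the median of fru-miR-21, r was 0.10. Leaving out the extremes narrows the range of fru-miR-21 and can lower r by itself, so this value cannot show whether the relation rests on them. The 5p members had an r of 0.54 with each other (permutation p = 0.0773, adjusted 0.116; rho 0.46, permutation p = 0.133, adjusted 0.200), and 0.46 without those fish. ssa-miR-21a-5p_R-3 and the 3p member had an r of −0.14 (permutation p = 0.666, adjusted 0.666; rho −0.27, permutation p = 0.407, adjusted 0.407), and −0.53 without noCHO fish 31 and 33. All these values share the scaling of the library. The permutations treated the 12 libraries as exchangeable, across groups and library sets, so differences between groups or sets can enter r. Their part in it was not tested.

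**Figure D4:**
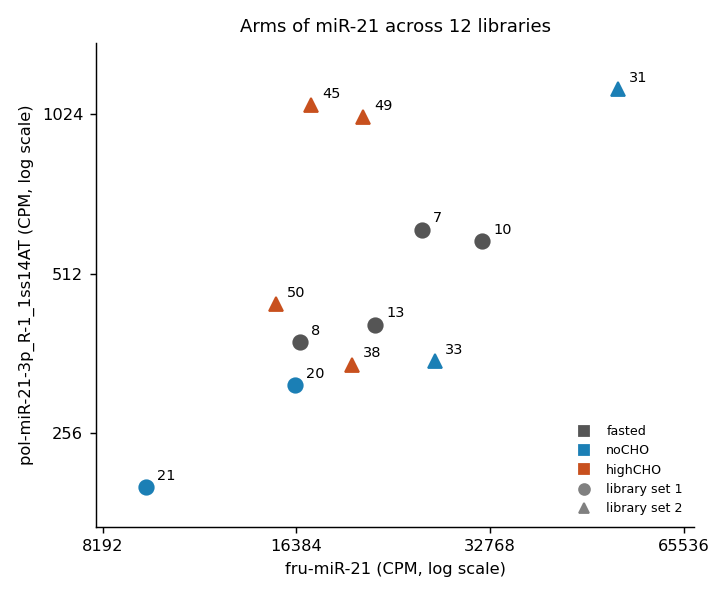
Level of the 3p member (vertical) against fru-miR-21 (horizontal), both in CPM on log axes, 1 point for each of the 12 libraries, coloured by group and shaped by library set, with fish numbers. Most libraries lie along a band from noCHO fish 21 to noCHO fish 31, while highCHO fish 45 and 49 lie above it, with 1068 and 1013 CPM of the 3p member at 17291 and 20813 CPM of fru-miR-21.

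None of the less abundant miR-21 sequences passed in the fit with the groups alone as terms. The shares of all 340 sequences that did were 0%, 6.18% and 2.35% in the order of the comparisons above. dre-miR-21_1ss23CA, the guide with a different last base, averaged 408 ± 116, 498 ± 188 and 246 ± 87.7 CPM from fasted through noCHO to highCHO (SD, n = 4). Its log2 change was −1.01 between the meals (SE 0.33, unadjusted p = 0.00976, adjusted p = 0.119, edgeR), −0.72 against fasted fish (SE 0.33, adjusted p = 0.179) and 0.29 for noCHO against fasted (SE 0.33, adjusted p = 0.993). Between the meals it passed with the set as a term (−1.37, SE 0.34, adjusted p = 0.0414), where 18 of 340 sequences did. It also passed without highCHO fish 38 (−1.27, SE 0.33, adjusted p = 0.0429), where 18 of 339 did. When the share of short inserts was the added term it had −0.45 between the meals (SE 0.45, adjusted p = 0.625) and −0.21 against fasted fish (SE 0.43, adjusted p = 0.838). Its share of all 5p counts was 1.09 to 1.87% in fasted, 1.02 to 2.33% in noCHO and 0.804 to 1.62% in highCHO fish, and noCHO fish 31 was again the lowest of its group. Whether the last base is part of a trout gene was not analysed here.

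ssa-miR-21a-3p, the 3p sequence with the other seed, rested on 4 to 14 counts per library. It stood at 7.43, 7.18, 6.84 and 2.66 CPM in the fasted fish, 4.51, 4.59, 5.95 and 3.28 CPM in the noCHO fish and 6.78, 12.7, 17.7 and 13.4 CPM in the highCHO fish. All 4 highCHO fish lay above all 4 noCHO fish, as 9.41% of the 340 sequences did in 1 direction or the other. The log2 change was 1.33 between the meals (SE 0.41, unadjusted p = 0.00722, adjusted p = 0.107, edgeR), 1.00 for highCHO against fasted (SE 0.42, adjusted p = 0.149) and −0.32 for noCHO against fasted (SE 0.42, adjusted p = 0.993). When the share of short inserts was the added term, ssa-miR-21a-3p had 0.82 between the meals (SE 0.58, adjusted p = 0.509, edgeR). Against fasted fish it then had 0.48 (SE 0.60, adjusted p = 0.684, edgeR). Its share of all 3p counts was 0.642 to 1.99% in fasted, 0.516 to 2.39% in noCHO and 1.17 to 2.88% in highCHO fish, so the groups overlapped. Without highCHO fish 50 it failed the filter on low counts. In the other fits that left out 1 library, its adjusted p between the meals ran from 0.0531 to 0.214. hhi-miR-21_L+2R+1, the lengthened guide, averaged 18.4 ± 6.16, 19.9 ± 10.8 and 16.1 ± 1.73 CPM (SD, n = 4), and its changes of 0.14 (SE 0.35), −0.21 (SE 0.38) and −0.35 (SE 0.37) in the order of the comparisons above did not pass.

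Over the 6 tested miR-21 sequences, the median log2 change was 0.13 for noCHO against fasted, −0.18 for highCHO against fasted and −0.43 between the meals. The medians of all tested sequences were 0.02, 0.03 and 0.00. Each pair of these comparisons shares a group of fish, so the values are not independent and are given side by side.

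Other miRNAs tied to stress, low oxygen and the p53 response were listed by family (miR-31, miR-34, miR-107, miR-132, miR-155, miR-210, miR-212, miR-221 and miR-222). Of 9 families, 7 had tested sequences, 12 in all; miR-31 had no count, and miR-132 had 45 counts in all libraries together. Against 0%, 6.18% and 2.35% of all 340 sequences in the order of the comparisons above, none of the 12 passed. Their median log2 change was −0.07 for noCHO against fasted (5 higher, 7 lower), −0.21 for highCHO against fasted (3 higher, 9 lower) and −0.14 between the meals (5 higher, 7 lower). Without fasted fish 8 the median for highCHO against fasted was −0.0021. The most abundant was fru-miR-221_R-1, of a family that represses the cell cycle inhibitor p27 in mammals. It averaged 3406 ± 618 CPM in fasted, 2884 ± 251 in noCHO and 2423 ± 465 in highCHO livers. Its change for highCHO against fasted was −0.49 (SE 0.18, adjusted p = 0.111). ssa-miR-222a-3p_R-1 and ssa-miR-222b-3p, of the same seed family in vertebrates, had −0.46 (SE 0.20, adjusted p = 0.172) and −0.73 (SE 0.25, adjusted p = 0.0902).

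Families tied to growth (miR-17, miR-18, miR-19, miR-20, miR-25, miR-26, miR-92, miR-93, miR-99, miR-100 and miR-106) had 38 tested sequences. Past the threshold, 0 rose and 4 fell in highCHO against fasted fish, and 0 rose and 1 fell between the meals. Of all 340 sequences, 6.18% and 2.35% were called in either direction. By sign alone, 12 of the 38 were higher and 26 lower in highCHO against fasted fish, and 15 higher and 23 lower between the meals. No sequence passed for noCHO against fasted. All of those past the threshold were miR-19, for example ssa-miR-19c-3p_R-1 in highCHO against fasted fish (274 ± 49.8 to 117 ± 13.8 CPM, log2 −1.22, SE 0.22, adjusted p = 0.00715). The others past it in that comparison were dre-miR-19a-3p_L+1R-2 (−1.36, SE 0.25, adjusted p = 0.00723), dre-miR-19c-3p_1ss23GT (−1.58, SE 0.29, adjusted p = 0.00723) and dre-miR-19d-3p_1ss13TA (−1.11, SE 0.29, adjusted p = 0.0434). Between the meals dre-miR-19c-3p_1ss23GT fell by 1.55 on the log2 scale (SE 0.29, adjusted p = 0.0129). These calls belong to 1 family and are not independent. With the short-insert term, the calls among all 340 sequences fell from 21 to 3 in highCHO against fasted fish and from 8 to 1 between the meals. Whether miR-19 was among those left was not examined here. The medians of the list were −0.03, −0.27 and −0.08 in the order of the comparisons above, and the one for highCHO against fasted was −0.096 without fasted fish 8. dre-miR-100-5p, ssa-miR-26a-5p and ssa-miR-100a-5p_R+1, its most abundant sequences, had changes of 0.39 (SE 0.36), 0.32 (SE 0.17) and 0.60 (SE 0.43) for highCHO against fasted and did not pass.

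By correlation of log2 CPM over the 12 libraries, the sequences of other families most like fru-miR-21 were ssa-miR-148a-5p (r = 0.81, rho 0.48), ssa-miR-725-3p (r = 0.77, rho 0.68), ssa-miR-130b-5p (r = 0.77, rho 0.85), ssa-miR-101b-5p (r = 0.75, rho 0.78) and dre-miR-301a_R+1 (r = 0.72, rho 0.84). They were picked as the highest, so no p is given. Without noCHO fish 31, r was 0.64, 0.59, 0.76, 0.73 and 0.75 in the same order. Most like pol-miR-21-3p_R-1_1ss14AT were ssa-miR-152-5p_L-1 (r = 0.88, rho 0.92), pol-miR-221-5p_R+4_1ss5GA (r = 0.74, rho 0.53), ssa-miR-146a-5p (r = 0.72, rho 0.82), ssa-miR-23a-3-5p_R+1 (r = 0.71, rho 0.55) and dre-miR-301c-5p_R+1_2ss4CT9GA (r = 0.69, rho 0.59). The lists had no sequence in common.

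The hepatocyte miRNA dre-miR-122_R-1 was abundant in every group, with 251103 ± 17158 CPM in fasted, 343625 ± 63706 in noCHO and 277857 ± 63390 in highCHO livers, as the tissue label says. Markers of other cells moved beside the miR-21 values as follows, and their part in the results was not tested. For reading the calls in the cell type lists, 0%, 6.18% and 2.35% of the 340 sequences passed in the order of the comparisons above. The 13 leukocyte sequences (miR-142, miR-146, miR-150, miR-155 and miR-223, led by ssa-miR-146a-5p, ssa-miR-146d-5p and dre-miR-142a-5p) summed to 31205 to 52877 CPM in fasted, 19432 to 47317 in noCHO and 24038 to 58165 in highCHO fish. The highest noCHO value was that of fish 31, which also led in fru-miR-21 and the 3p member. Most of that value, 41566 of 47317 CPM, was ssa-miR-146a-5p, listed above among the sequences most like the 3p member. For highCHO against fasted, the log2 change was −0.68 (SE 0.23) for dre-miR-142a-5p but 0.23 (SE 0.34) for ssa-miR-146a-5p. Between the meals these changes were −0.34 (SE 0.23) and 0.68 (SE 0.35). Of the 13 sequences, 8 were higher and 5 lower in each of these comparisons. The 5 erythrocyte sequences (led by dre-miR-451_R-1, fru-miR-144_L+1R-1 and pol-miR-144-5p_1ss11TA) summed to 1487 to 4829, 1487 to 3804 and 1790 to 3327 CPM, and fish 31 again led its group. None of these sequences passed in any comparison, with medians of −0.33, 0.07 and 0.46 for leukocytes and −0.32, −0.28 and −0.12 for erythrocytes in the order of the comparisons above. The highest fasted and highCHO leukocyte sums, 52877 and 58165 CPM, lay above that of noCHO fish 31. Fish 31 did not lead the noCHO group in the hepatocyte, fibroblast and smooth muscle, endothelial or pancreas sums given below. In the epithelial sum it was the lowest of its group, at 1635 CPM.

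The 14 fibroblast and smooth muscle sequences (miR-143, miR-145, miR-199 and miR-214, led by dre-miR-199-5p, ccr-miR-143 and ssa-miR-145-3p_L+2R-1) summed to 48302 to 61236, 43720 to 63236 and 61940 to 77918 CPM from fasted through noCHO to highCHO. ssa-miR-145-3p_L+2R-1 rose in highCHO against both fasted (log2 1.57, SE 0.22, adjusted p = 0.00124) and noCHO fish (1.19, SE 0.22, adjusted p = 0.0129), and dre-miR-199-3p_L-1 fell against noCHO fish (−0.73, SE 0.15, adjusted p = 0.0194); the list's medians were 0.12, 0.09 and 0.16. The 3 endothelial miR-126 sequences (ccr-miR-126-3p_L-1R+1, fru-miR-126 and ipu-miR-126b) summed to 7779 to 9696, 8942 to 9625 and 8778 to 12477 CPM, with medians of 0.06, −0.01 and −0.26 and none past the threshold. The 15 hepatocyte sequences (miR-122, miR-148, miR-192 and miR-194, led by dre-miR-122_R-1, with ipu-miR-192 and dre-miR-148_R-1 next) summed to 273079 to 335768, 349551 to 506612 and 294670 to 415154 CPM, with medians of 0.08, 0.28 and −0.01 and none past the threshold.

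The 4 tested epithelial sequences (miR-200 and miR-429) were led by fru-miR-200a_R-1, fru-miR-200b_R+1 and dre-miR-429a. miR-141 and miR-205 had 7 and 32 counts in all. The 4 sequences summed to 2134 to 6899 CPM in highCHO fish, highest in fish 38, against 1635 to 2899 CPM in the fasted and noCHO groups. Of these dre-miR-429a rose in highCHO against fasted fish (2.36, SE 0.61, adjusted p = 0.0434) and fru-miR-200a_R-1 against noCHO fish (1.25, SE 0.25, adjusted p = 0.0178); the medians were −0.13, 1.29 and 1.49. The 5 tested pancreas sequences (miR-7, miR-216 and miR-375) were led by ssa-miR-216b-5p, dre-miR-375 and dre-miR-216b. They summed to 12792 CPM in fish 38 of the highCHO group, while no fasted fish exceeded 337 CPM and no noCHO fish 239 CPM. The lowest highCHO fish stood at 172 CPM and the highCHO mean was 3342 CPM, so fish 38 held most of the group's total. None of these sequences passed, with medians of −0.34, 2.94 and 3.28. The medians were the changes of dre-miR-375, which averaged 678 ± 1214 CPM in highCHO fish (SD, n = 4). With fish 38 so far above, the 2 highCHO medians cannot be read as a shift of the whole group. miR-217 did not pass the filter. Without fish 38 the change of fru-miR-21 was −0.42 for highCHO against fasted and −0.55 between the meals, with adjusted p = 0.564 and 0.446. ssa-miR-21a-5p_R-3 then had −0.28 and −0.76 (adjusted p = 0.460 and 0.0731), and the 3p member 0.75 and 0.74 (adjusted p = 0.390 and 0.375).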

How the data were processed

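Small RNA of 12 trout livers, 1 library a fish and 4 fish a group, was sequenced. The authors deposited estimated counts per named miRNA sequence, with reads shared between sequences split into fractions (85.1% of the values are whole), and a signal column of the same values divided by a library size parameter, per the file headers. Whole-number read counts of each library's filtering steps were also deposited. Bowtie 1.1.1 is named in the submitters' processing notes; neither its role nor the genome build or miRNA database release is given there. The signal columns were not used in any test.

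The estimated counts were rounded and fitted with edgeR 4.0.16 (quasi-likelihood, TMM scaling, filterByExpr) in R 4.3.3 over all 12 libraries, keeping 340 of 1696 sequences and 99.9% of counts, with 9 residual degrees of freedom and a biological coefficient of variation of 0.411. A threshold of 0.05 was set on Benjamini-Hochberg adjusted p over the 340. SE is the log2 change over the square root of F. Counts per library ran from 197684 to 3057706, and intervals on shares cover counting error only. The p-values set group differences against the spread between these fish and treat the fish as independent. Nothing in the labels says whether fish shared a tank or a day, so that independence could not be checked. Within-library quantities were tested by two-sided exact permutation over 70 arrangements (smallest p 0.0286), and correlations by 100000 permutations. The library sets were split at 2% of the let-7 variant. The code was checked on simulated data.

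The named sequences are the members, all other miR-21 names, sequences sharing a member's seed, the 5 of other families most correlated with fru-miR-21 and with the 3p member, the 3 most abundant of each list (stress, hypoxia and p53; growth and regeneration; hepatocyte; fibroblast and smooth muscle; leukocyte; endothelial; erythrocyte; epithelial; pancreas), and called members of the 2 pathway lists; called members of the cell type lists were named after their values were seen. Members and lists were chosen with earlier results of these data known. Alternatives were median-ratio and total count scaling, DESeq2 1.42.0, no filter, a minimum mean count of 100, a fit of the 2 groups compared, the library set and the short-insert percentage as terms, fits within a set, summed 5p sequences, and leaving out each library.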

Additional observations from a re-analysis of the deposited data

Results flagged for a closer look

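In noCHO fish, pol-miR-21-3p_R-1_1ss14AT was far higher in fish 31, at 1144 CPM, than in the other 3 fish; the gap to the nearest was 0.843 of the group's whole range, above Dixon's critical value of 0.829 for 4 samples. In fasted fish, ssa-miR-21a-3p was far lower in fish 13, at 2.66 CPM or 7 estimated counts, than in the other 3 (gap 0.877 of the range). These were 2 of 24 groups of values examined, and chance flags about 1 in 20.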

How the results depend on the processing

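No paired analysis was possible because the groups share no fish numbers. None of the 6 miR-21 sequences passed in the fit as reported; values below are log2 changes or counts of sequences past the threshold, and where a value moved the cause was not tested. Counts with no filter are over 1576 sequences, against 340 in the fit as reported, so they do not compare as shares. For noCHO against fasted the count went from 0 to 4 with no filter and 2 with DESeq2. For highCHO against fasted it went from 21 to 13 with total scaling, 54 with no filter, 13 with the library set as a term, 3 with the short-insert term and 33 with DESeq2. Between the meals it went from 8 to 3, 52, 18, 1 and 19 in the same order, 4 with the compared groups alone and 0 within set 2 (edgeR; 48 had an unadjusted p under 0.05). Total scaling moved the median of all sequences to −0.17 for noCHO and −0.19 for highCHO against fasted.

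For noCHO against fasted, fru-miR-21 turned to −0.061 with total scaling, −0.89 with the set term and −0.90 within set 1. pol-miR-21-3p_R-1_1ss14AT, at 0.01, turned to −0.017 with median-ratio scaling and with DESeq2, −0.16 with total scaling, −0.033 at a mean count of at least 100, −0.95 with the set term, −0.0080 with the short-insert term, −0.00019 with the compared groups alone and −0.97 within set 1. hhi-miR-21_L+2R+1 turned to −0.035, −0.58 and −0.57 (total scaling, set term, within set 1) and dre-miR-21_1ss23CA to −0.20 and −0.22 (set term, within set 1). For highCHO against fasted, ssa-miR-21a-5p_R-3 turned to 0.20 with the short-insert term and the 3p member to −1.01 with the set term and −0.50 with the short-insert term. Between the meals the 3p member turned to −0.061, −0.49 and −0.053 (set term, short-insert term, within set 2). The 21-nt share difference between the meals turned to 0.524 points pooled and 0.146 within set 2. With the set term fru-miR-21 passed for highCHO against fasted (−1.99), and ssa-miR-21a-5p_R-3 (−0.92) and dre-miR-21_1ss23CA (−1.37) between the meals.

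Leaving out 1 library gave 0 to 2, 7 to 25 and 2 to 18 calls. In the order noCHO against fasted, highCHO against fasted and highCHO against noCHO, fru-miR-21 ran from −0.49 to 0.35, −0.48 to −0.19 and −0.73 to 0.12, ssa-miR-21a-5p_R-3 from 0.28 to 0.60, −0.28 to 0.026 and −0.76 to −0.41, and the 3p member from −0.83 to 0.22, 0.26 to 0.75 and 0.25 to 1.36. hhi-miR-21_L+2R+1 ran from −0.32 to 0.33, −0.29 to 0.021 and −0.52 to 0.12, and dre-miR-21_1ss23CA between the meals from −1.27 to −0.73. The stress list's median ran from −0.25 to −0.019, −0.33 to −0.0021 and −0.20 to 0.027, and the growth list's from −0.15 to −0.013, −0.30 to −0.096 and −0.17 to 0.030. For highCHO against fasted, both were nearest 0 without fasted fish 8.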

Other observations

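The 10 sequences with a miR-21 name that did not pass the filter on low counts had at most 88 estimated counts over all libraries. The most abundant of them, pol-miR-21-5p_R+6, extends the guide strand to 28 bases and had its highest library at 38.5 counts. ola-miR-21_R+4 had 35 counts in all and ssa-miR-21a-2-3p_1ss8AG, which carries the same seed as ssa-miR-21a-3p, 20.3. The 3 fragments from other parts of the miR-21 precursor held between 0.5 and 4 counts each.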
